A study of Mus musculus with 9 samples.

Results

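The cell cycle and proliferation genes are 40 genes that drive or report cell division. They were chosen by name, and each is represented here by the probe set with the highest mean over all arrays among those that the array annotation pairs with that gene alone. Of the 40 genes, 38 were measured, on 96 probe sets, among 18193 genes and 45037 probe sets in all. Ccnb1 and Trp53 lack a probe set of their own in that annotation and their expression is not analysed here. The 38 are 18 genes of mitosis, 4 cyclins of the G1 phase, 10 genes of DNA replication, 2 E2F transcription factors, and 4 inhibitors or checkpoint genes.

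Each sample was the RNA of whole aortae of male mice on 1 Affymetrix array of mouse transcripts. There were 5 arrays labelled BMAL+/+ (F01, F04, F07, F09 and F10) and 4 labelled BMAL-/- (F02, F03, F05 and F08), described as biological replicates. BMAL-/- denotes mice without working BMAL1, a transcription factor of the circadian clock encoded by Arntl, and the labels name no restriction to a tissue. Both genotypes were partially backcrossed onto C57Bl/6J, had 2 weeks or more of days with 12 h of light, then 30 h or more without any light, and were killed at ZT14. Ages are not given in the sources used here.

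Cells that leave rest pass from G1 into DNA synthesis when D and E type cyclins with their kinases release the E2F factors from the retinoblastoma proteins. E2F then switches on the replication genes, and the genes of mitosis follow later under FOXM1, B-MYB and the DREAM complex. In the healthy adult aorta smooth muscle and endothelial cells divide rarely, so most of these transcripts are scarce there. The clock is known to touch the cycle through Wee1, Cdkn1a and Myc. The comparison asks whether the proliferative programme of the aorta differs between the genotypes at this time of day.

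Several arrays stood apart before any cell cycle gene was considered. Arntl itself read 5.87, 6.22 and 6.05 on F02, F03 and F08 and between 2.74 and 2.82 on F01, F07, F09 and F10. It read 6.67 on F04 and 2.77 on F05, so that these 2 arrays stood with the other genotype. Arntl was thus higher on most arrays of BMAL-/-, the genotype named for its loss. Its difference as labelled was 1.67 ± 1.02 (SE; limma, adjusted p = 0.386), and the reason for this direction was not tested. Every direction below therefore rests on the labels, and each comparison was run on all 9 arrays as labelled and on 7 arrays, without F04 and F05. The source name of F01 reads BMAL-/- while its title and strain read BMAL+/+, and it was kept in BMAL+/+. The difference between the 3' and 5' control probe sets of beta-actin, which grows as RNA degrades or is copied incompletely, was 3.91, 4.24 and 4.20 on the log2 scale on F04, F02 and F03 and between 1.38 and 2.72 on the other arrays. Smooth muscle markers were high on every array, with Myh11 between 11.55 and 13.30, and brown fat was present too, with Ucp1 between 13.10 and 14.68. Markers of striated muscle varied widely, with Acta1 of skeletal muscle between 5.56 and 13.10 and Myh6 of heart muscle between 8.64 and 12.82.

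Many of the proliferation genes gave little signal in these aortae. On the deposited log2 scale the median probe set had a mean over the 9 arrays of 3.19, and the upper quartile began at 5.93. Of the 38 genes, 19 lay below that median, in a dense floor where the arrays differ by little for most genes. In that floor Ccnb2 and Cdk1 ranged more widely, from 2.33 to 3.74 and from 2.19 to 3.42. A further 8 lay between the median and the upper quartile, and 11 lay above it. Of all 18193 genes, each on its brightest probe set, 7013 lay below that median and 6819 above the upper quartile. Of the 18 mitosis genes 14 were in the floor, among them the kinases Cdk1, Aurka, Plk1, Bub1 and Bub1b and the motors Kif11 and Kif20a, and none was above the upper quartile. The 11 brighter genes were the D cyclins Ccnd1, Ccnd2 and Ccnd3, the replication genes Mcm4, Mcm5, Mcm6, Mcm7, Pcna and Rrm1, and the kinase inhibitors Cdkn1b and Cdkn2c. The brightest probe sets of Ccnd2, Mcm4, Mcm5, Mcm6 and Mcm7 are of a type that can match several genes, and the other probe sets of Mcm5 lay in the floor.

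**Figure D1:**
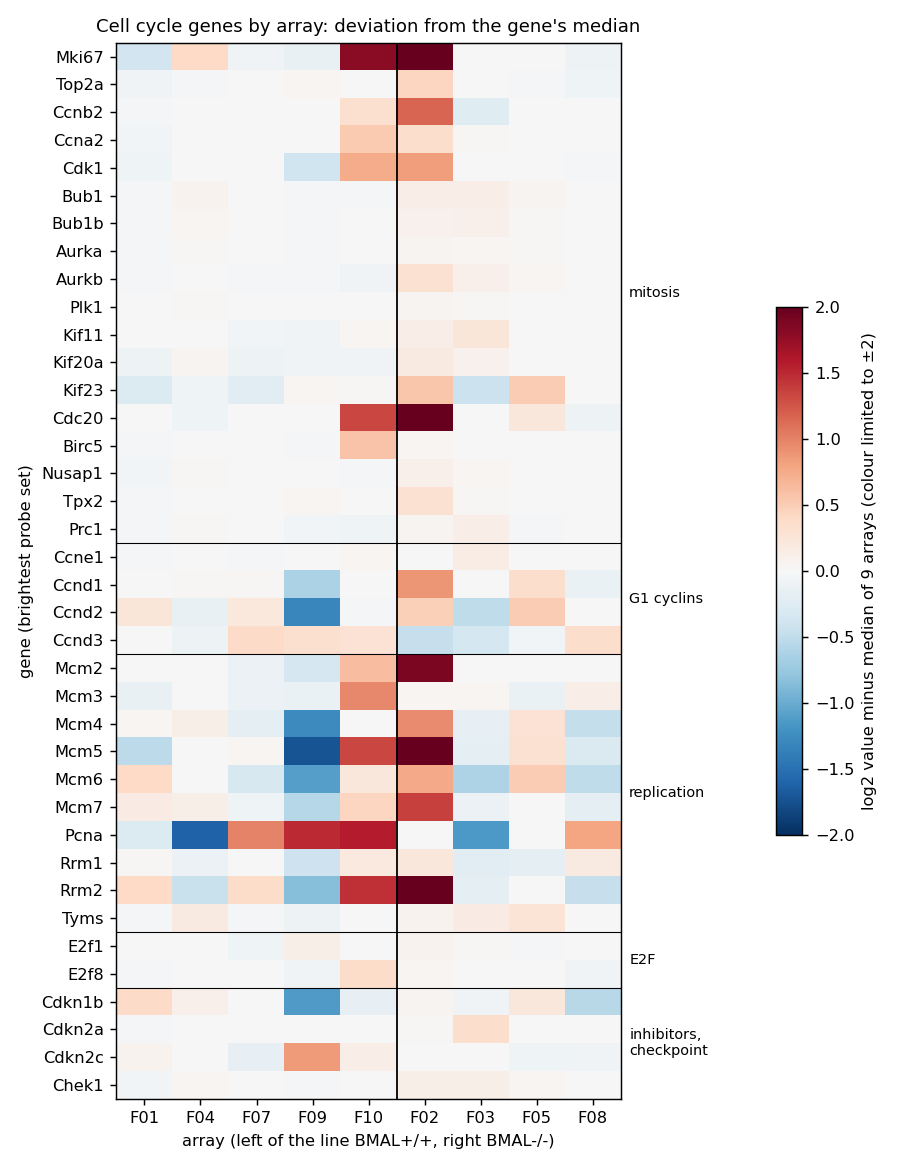
Heat map of the 38 genes (rows, by role) on the 9 arrays (columns, BMAL+/+ left of the line). Colour gives the log2 value minus the gene's own median over the arrays, limited to ±2. The red cells gather in the columns F10 and F02, one of each genotype, and the blue cells of Mcm4 to Mcm7, Ccnd1 and Ccnd2 gather in F09.

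No cell cycle gene differed between the genotypes as labelled. In limma with Benjamini-Hochberg adjustment, 0 of 38 genes had an adjusted p under 0.05, where 0.0% of all probe sets did (smallest adjusted p 0.37), and the one-way ANOVA of the design text also called 0. At an unadjusted p under 0.05 there were 2 genes, both floor genes higher in BMAL-/-, against 8.67% of all probe sets, 7.92% in the higher direction, and 14.3% of floor probe sets in that direction. The groups did not overlap for 0 of 38 genes, against 0.773% of all probe sets. Of the 38 differences 32 were positive, and the share of positive differences over all genes is not given here. The median of the 38 was 0.09 on the log2 scale against 0.03 over all genes. That median was 0.01 without F02.

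Of the 18 mitosis genes 17 had a positive difference, most of them small. A positive sign was also common outside these genes, with 29 of 32 floor genes of the other cell cycle lists described below. For the 14 in the floor the median was 0.07, against 0.03 over all floor probe sets. Kif20a, a kinesin of cytokinesis, read 2.83 on F01, 2.98 on F04, 2.83 on F07, 2.86 on F09 and 2.86 on F10 among BMAL+/+ arrays, and 3.11 on F02, 3.01 on F03, 2.93 on F05 and 2.93 on F08 among BMAL-/- arrays. The groups overlapped only through F04, and the difference was 0.12 ± 0.05 (SE; limma, adjusted p = 0.37). Aurka, the kinase of the centrosome and spindle, read 2.22, 2.27, 2.24, 2.22 and 2.24 on the BMAL+/+ arrays in the order F01, F04, F07, F09 and F10, and 2.30, 2.29, 2.26 and 2.24 on the BMAL-/- arrays in the order F02, F03, F05 and F08. All its values lay between 2.22 and 2.30, with overlapping groups, and its difference was 0.03. Bub1, a kinase of the spindle checkpoint, read 2.89, 2.99, 2.91, 2.89 and 2.89 in BMAL+/+ and 3.04, 3.05, 2.97 and 2.91 in BMAL-/- in the same orders, a difference of 0.08. The groups overlapped, with F04 above F05 and F08.

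Other mitosis genes in the floor had differences between -0.09 and 0.17. Birc5, which encodes survivin of the chromosomal passenger complex, was the one with a negative sign, and Ccnb2, a B type cyclin, had the highest. Mki67, Cdc20, Aurkb and Kif23 lay above the median brightness. Aurkb, the passenger complex kinase, read 3.37 to 3.45 in BMAL+/+ with a median of 3.42 and 3.44 to 3.75 in BMAL-/-, so that only F08 fell inside the BMAL+/+ range. Kif23, a motor of the central spindle, read 3.47 to 3.78 in BMAL+/+ and 3.31 to 4.29 in BMAL-/-, where both its highest and its lowest values were found.

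Among the G1 cyclins, Ccnd1, which links growth signals to CDK4 and CDK6, read 6.74, 6.76, 6.77, 6.12 and 6.74 on the BMAL+/+ arrays (F01, F04, F07, F09 and F10) and 7.63, 6.74, 7.10 and 6.61 on the BMAL-/- arrays (F02, F03, F05 and F08). F09 was lowest and F02 highest, and the other 7 arrays lay between 6.61 and 7.10. The difference was 0.39 ± 0.24 (SE), and the other probe sets gave 0.18 and -0.21. Ccnd2, the D cyclin with the most probe sets here, read 10.52, 10.12, 10.48, 8.96 and 10.25 in BMAL+/+ and 10.75, 9.76, 10.77 and 10.27 in BMAL-/-, a difference of 0.32 ± 0.36 (SE). Of its 6 other probe sets, 4 had the opposite sign.

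Ccnd3 was the cyclin with a negative difference. It read 7.39, 7.28, 7.77, 7.70 and 7.67 in BMAL+/+ and 6.92, 7.04, 7.32 and 7.73 in BMAL-/-, a difference of -0.31 ± 0.19 (SE; limma, adjusted p = 0.396). Its lowest values were those of F02, F03 and F04, the arrays with the widest 3' to 5' gap, and F08 lay inside the BMAL+/+ range. Ccne1, the cyclin partner of CDK2, stayed between 3.70 and 3.90 on all arrays.

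The MCM genes encode the helicase that licenses replication origins. Mcm4 read 7.87, 7.96, 7.65, 6.56 and 7.83 on F01, F04, F07, F09 and F10 and 8.77, 7.66, 8.11 and 7.35 on F02, F03, F05 and F08. Mcm5 read 6.10, 6.63, 6.66, 4.90 and 7.96 in BMAL+/+ and 8.67, 6.43, 6.94 and 6.34 in BMAL-/-. In both genes F09 was lowest and F02 highest, and the groups overlapped over most of their range. Mcm6 read 8.40, 8.0, 7.69, 6.90 and 8.22 in BMAL+/+ and 8.76, 7.38, 8.51 and 7.49 in BMAL-/-. Mcm7 read 7.94, 7.90, 7.70, 7.22 and 8.21 in BMAL+/+ and 9.15, 7.66, 7.78 and 7.60 in BMAL-/-. Again F09 was lowest and F02 highest. The differences were 0.40 ± 0.37 (SE) for Mcm4, 0.64 ± 0.66 (SE) for Mcm5, 0.19 ± 0.39 (SE) for Mcm6 and 0.25 ± 0.35 (SE) for Mcm7, each close to or under its error. The other probe sets gave -0.17 for Mcm4, -0.73 and 0.06 for Mcm6, and -0.79, -0.20 and 0.38 for Mcm7. Those of Mcm5 lay in the floor and gave -0.01 and 0.01. In the 7 arrays the most negative of these probe sets gave -1.22 for Mcm6 and -1.46 for Mcm7. Mcm2 and Mcm3, less bright, had differences of 0.44 and -0.09.

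The other replication genes split. Pcna, the sliding clamp of DNA polymerase, read 7.55, 6.21, 8.83, 9.32 and 9.40 on F01, F04, F07, F09 and F10 and 7.83, 6.68, 7.83 and 8.63 on F02, F03, F05 and F08. It was low on F04 and F03 and high on F10 and F09, with a difference of -0.52 ± 0.70 (SE). Only this probe set is paired with Pcna alone. Rrm1, the large subunit of ribonucleotide reductase, varied less, with 6.58, 6.44, 6.55, 6.13 and 6.74 in BMAL+/+ and 6.77, 6.33, 6.38 and 6.72 in BMAL-/-. Rrm2, the small subunit whose level follows S phase, read 3.86 to 6.17 in BMAL+/+ and 4.25 to 7.43 in BMAL-/-. Tyms, thymidylate synthase, was in the floor at 2.94 to 3.33. E2f1 and E2f8, an activating and a repressing E2F factor, were in the floor too, with differences of 0.02 and -0.06.

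Of the inhibitors, Cdkn1b, which encodes p27 and holds resting cells in G1, read 10.44, 10.17, 10.06, 8.93 and 9.89 in BMAL+/+ and 10.11, 10.00, 10.29 and 9.51 in BMAL-/-. F09 and F08 were lowest, and the difference was 0.08 ± 0.30 (SE). Cdkn2c, which encodes the CDK4 and CDK6 inhibitor p18, read 7.15, 7.09, 6.92, 7.94 and 7.23 in BMAL+/+ and 7.09, 7.10, 7.00 and 7.01 in BMAL-/-. F09 was the highest array, the other arrays lay between 6.92 and 7.23, and the difference was -0.21 ± 0.20 (SE). Chek1, the kinase of the replication checkpoint, read 2.73, 2.83, 2.78, 2.76 and 2.78 in BMAL+/+ and 2.90, 2.91, 2.83 and 2.79 in BMAL-/-, a difference of 0.08 ± 0.03 (SE; limma, adjusted p = 0.37). Cdkn2a, the locus of p16 and ARF, read 2.58 on F03 and between 2.20 and 2.25 elsewhere.

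**Figure D2:**
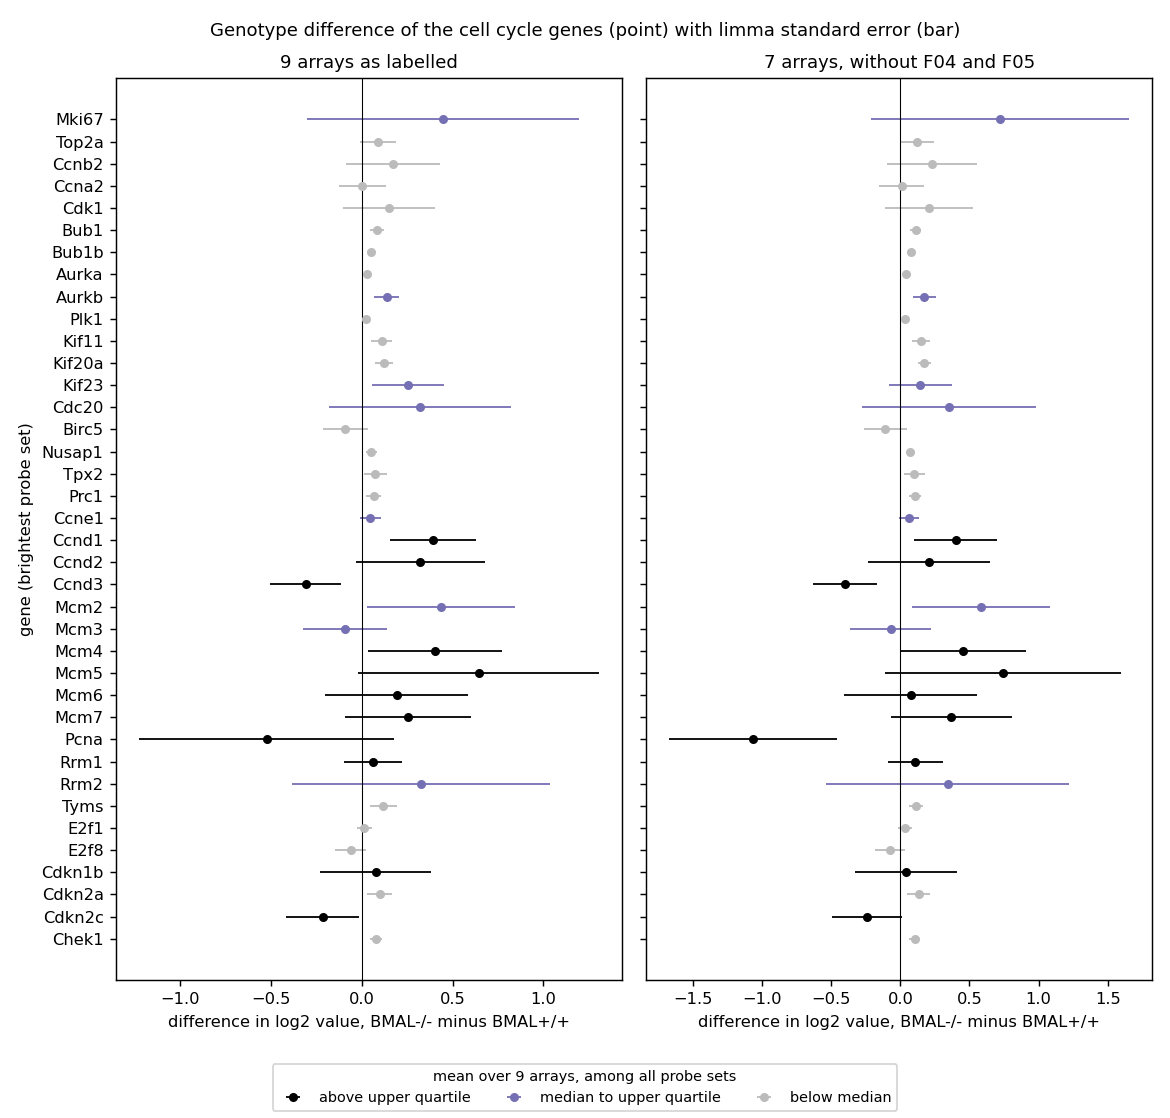
Difference in log2 value, BMAL-/- minus BMAL+/+, with limma's standard error as a bar, for each of the 38 genes (rows) in the 9 arrays as labelled and in the 7 arrays without F04 and F05. Grey genes lie below the median brightness. Differences as labelled run from -0.52 for Pcna to 0.64 for Mcm5, and most of the narrow bars belong to floor genes. Of the floor genes, Ccnb2 and Cdk1 have wider bars (SE 0.26 and 0.25 as labelled).

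Without F04 and F05 the small differences of the floor genes stood out more from their spread, and no gene passed. In limma with Benjamini-Hochberg adjustment, 0 of 38 genes had an adjusted p under 0.05, where 0.00888% of all probe sets (4) did. At an unadjusted p under 0.05 there were 7 genes on their brightest probe sets, all higher in BMAL-/- and all in the floor. They were Bub1, Bub1b, Aurka, Plk1, Kif20a, Prc1 and Chek1. Over all 96 probe sets of the members 14 reached that p, and those lower in BMAL-/- were not in the floor. They were a further probe set of Mcm6 (-1.22, limma, unadjusted p = 0.0293), whose groups did not overlap, and one of Mcm7 (-1.46, limma, unadjusted p = 0.0486). Of all probe sets 23.7% reached that p, 20% in the higher direction, and of all probe sets in the floor 32.9% did so in the higher direction. The groups did not overlap for 7 of 38 genes, all higher in BMAL-/-, against 17.5% of all probe sets and 14.9% in that direction. These were Bub1, Bub1b, Aurkb, Kif20a, Nusap1, Prc1 and Chek1. The shares of members were close to those of all probe sets. The differences of these genes were small, 0.17 ± 0.05 (SE) for Kif20a, 0.17 for Aurkb, 0.11 for Bub1 and 0.10 for Chek1, each at an adjusted p of 0.208 or 0.218 (limma).

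Markers of several cell types had differences mostly of one sign in the same 7-array comparison, none of them past limma's adjusted threshold. All 5 smooth muscle markers had negative differences, with a median of -1.13, and their mean level was 11.89 to 12.28 in BMAL+/+ and 10.64 to 11.89 in BMAL-/-. Of 5 fibroblast markers 4 were negative, with a median of -1.60 and mean levels of 10.02 to 10.45 against 8.07 to 9.65. All 7 macrophage markers were negative, with a median of -0.95 and mean levels of 7.23 to 8.63 against 6.15 to 6.89. The 5 endothelial markers split, with Pecam1 at -1.94 and Kdr at 0.98. All 3 heart muscle markers were negative and all 3 skeletal muscle markers positive, with medians of -2.21 and 1.37. F02, F03 and F04, the arrays with the widest 3' to 5' gap, were often the 3 lowest for these markers over all 9 arrays. This held for 4 of 5 smooth muscle, 3 of 5 fibroblast, 3 of 7 macrophage and 1 of 5 endothelial markers. Of all genes 4.88% had this order, and 10.4% of those above the upper quartile. F04, left out here, is labelled BMAL+/+, with a smooth muscle mean of 11.27. The parts of RNA quality in these markers and of the tissue's makeup in the cell cycle differences were not tested.

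Whether genes were called in the 7 arrays turned on F08. Without F08 the fit called 11 genes, of which 10 were higher in BMAL-/- (Bub1, Bub1b, Aurka, Aurkb, Plk1, Kif11, Kif20a, Nusap1, Prc1 and Chek1) and Ccnd3 was lower at -0.65 (limma, adjusted p = 0.0291). The same fit called 16445 probe sets, 36.5% of all, and 59.3% of those in the floor. With array weights 9 genes were called among 15448 probe sets. The higher genes differed by 0.05 (Plk1) to 0.24 (Aurkb) without F08 and by 0.04 to 0.21 with weights. Ccnd3 differed by -0.64 with weights, against -0.40 when all 7 arrays counted equally. In the 7 arrays Pcna differed by -1.06 ± 0.61 (SE), Ccnd3 by -0.40 ± 0.23 (SE) and Cdkn2c by -0.24 ± 0.25 (SE), with adjusted p between 0.269 and 0.523 (limma).

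The clearest order among the proliferation genes set 2 arrays of different genotype apart from the rest. F02, labelled BMAL-/-, and F10, labelled BMAL+/+, were the 2 highest of the 9 arrays for 12 of 38 genes (31.6%), where 4.94% of all genes had this order. The 12 were Mki67, Cdc20, Cdk1, Ccnb2, Ccna2 and Birc5 of mitosis, Rrm2, Mcm5, Mcm2, Mcm7 and Rrm1 of replication, and E2f8. No G1 cyclin and no inhibitor was among them. This order was seen in the data and then counted, so it is a description, and F02 and F10 form no group of the study.

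Mki67, the antigen that marks cycling cells, read 5.59 on F10 and 6.97 on F02, and on the other 7 arrays it stayed between 3.40 and 4.19. F10 thus lay 1.40 above the next array, a 2.64-fold step. Cdc20, the activator of the anaphase promoting complex, read 5.53 on F10 and 6.33 on F02 against 4.10 to 4.43 elsewhere. Rrm2 read 6.17 and 7.43 against 3.86 to 5.12, and Mcm5 7.96 and 8.67 against 4.90 to 6.94. These 4 genes, chosen after their values were seen, were the members with a step of at least 1, among 233 such genes of all 18193. The steps of Cdk1 (0.73), Mcm2 (0.62), Ccna2 (0.32), Ccnb2 (0.32) and Mcm7 (0.27) were smaller, and those of Birc5, E2f8 and Rrm1 were 0.03 or less. Top2a, the topoisomerase of dividing cells, read highest on F02 on its brightest probe set, and on another it read 4.55 on F10 and 4.49 on F02 against 2.26 to 2.55 elsewhere. Over all probe sets of the members, 24 of 96 had the order, against 3.98% of all probe sets.

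Because these 2 arrays carry different genotypes, they add spread to both groups, and the genotype difference of such genes depended on them. Ccna2, Birc5 and E2f8, higher on F10 than on F02, differed by 0.00, -0.09 and -0.06 as labelled. Mki67, higher on F02, differed by 0.45 ± 0.75 (SE) as labelled, by -0.36 without F02, by 0.82 without F10 and by 0.01 without F02 and F10. Cdc20 differed by 0.32, by -0.20 without F02 and by 0.07 without both, and Rrm2 by 0.33, by -0.41 and by -0.09. Mcm5 kept its sign as labelled, with 0.64, 0.12 without F02 and 0.50 without both, but in the 7 arrays it read 0.74 and, without F02, -0.02.

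Lymphocyte markers had the same order. All 4 measured markers, Cd3e, Cd8a, Cd79a and Ms4a1, were highest on F02 and F10, and their mean was 5.32 on F02 and 5.93 on F10 and between 3.06 and 3.25 on the other arrays. Ms4a1, the B cell antigen CD20, read 8.95 on F10 and 8.05 on F02 against 3.44 to 4.16, a 14.8-fold step. Cd79a, part of the B cell receptor, read 7.28 and 4.57 against 2.45 to 2.52. Over all genes the widest steps were those of Pou2af1 (5.76), Tnfrsf13c (4.93) and H2-Ob (4.93), all known from B cells. Which of the 2 arrays was higher varied within both sets of genes. F02 was above F10 for Mki67, Cdc20, Mcm5 and Rrm2, for Cd3e and Cd8a, and for Pou2af1, Tnfrsf13c and H2-Ob. F10 was above F02 for Ccna2, Birc5 and E2f8 among the members with this order, and for Ms4a1 and Cd79a among the markers. None of the 5 smooth muscle, 5 endothelial, 5 fibroblast or 3 brown fat markers had the order, and of 7 macrophage markers 1 did, Csf1r with a step of 0.06. The part of lymphocytes in the cell cycle values was not tested, and in whole tissue more cells of a type cannot be told apart from more RNA per cell.

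**Figure D3:**
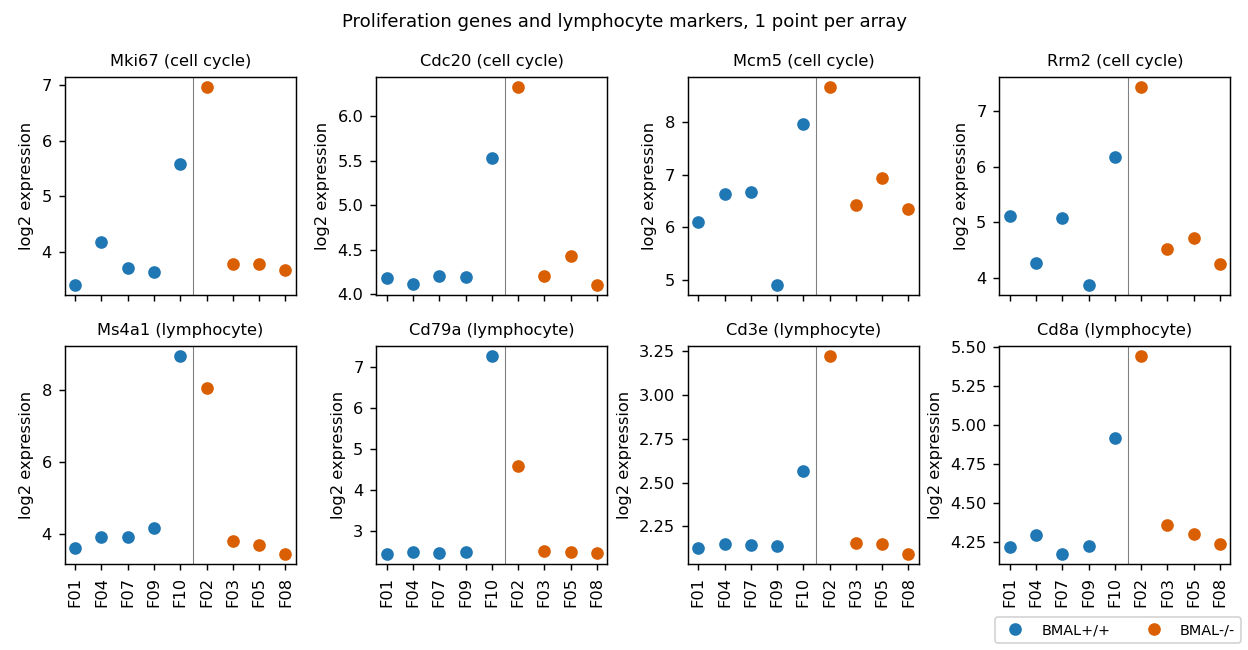
Log2 expression of 4 proliferation genes (top) and 4 lymphocyte markers (bottom), 1 point per array, coloured by genotype. In each panel the 2 highest points are F10, a BMAL+/+ array, and F02, a BMAL-/- array. Mki67 reads 5.59 and 6.97 there and at most 4.19 elsewhere.

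Promoters of the cell cycle genes were searched for the elements known from their class, whether or not a gene had this order. RefSeq promoters (GRCm38.p6), from 250 bases before to 50 after the gene's start, were matched for 33 of the 40 genes, Ccnb1 and Trp53 included, and motifs were searched on both strands. Members are counted as genes, with a match in any of a gene's promoters (Prc1 and Mcm7 have several). The shares over all are counted per promoter. The letters TTTGAA, the core of the cell cycle homology region bound by DREAM and FOXM1 complexes, were in 11 of 15 mitosis genes and in 17.9% of all 32851 promoters. CCAAT, the element of NF-Y, was in 13 of 15 mitosis genes, 8 of 9 replication genes and 37.4% of all. The E2F forms TTTCGCGC and TTTGGCGC were in 0.323% and 0.514% of all promoters and in 3 of 9 replication genes each. The windows below show 3 mitosis and 2 replication genes, with matches to these 4 motifs in capitals on the gene's strand, where a match on the opposite strand appears as its reverse complement (ATTGG for CCAAT).
Cdk1: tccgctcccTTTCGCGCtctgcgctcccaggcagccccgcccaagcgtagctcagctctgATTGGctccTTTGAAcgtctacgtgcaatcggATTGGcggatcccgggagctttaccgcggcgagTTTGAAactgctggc
Cdc20: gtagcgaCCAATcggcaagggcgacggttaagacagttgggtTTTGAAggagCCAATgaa
Ccnb2: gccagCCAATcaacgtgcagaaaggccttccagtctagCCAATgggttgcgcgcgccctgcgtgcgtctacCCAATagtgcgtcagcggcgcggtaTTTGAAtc
Mcm5: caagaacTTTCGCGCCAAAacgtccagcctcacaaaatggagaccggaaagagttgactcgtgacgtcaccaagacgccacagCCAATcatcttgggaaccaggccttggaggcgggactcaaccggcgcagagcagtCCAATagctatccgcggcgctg
Mcm6: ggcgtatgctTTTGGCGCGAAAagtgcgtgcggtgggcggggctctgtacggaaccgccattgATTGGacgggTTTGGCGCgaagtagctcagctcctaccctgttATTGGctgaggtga

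The Cdk1 window (chr10:69352913-69353052, minus strand) ran from -140 to -1 and held TTTCGCGC at -131, CCAAT on the opposite strand at -80 and -48, and TTTGAA at -71 and -15. The Cdc20 window (chr4:118437344-118437403, minus strand) held TTTGAA at -18 between CCAAT at -53 and -8, and the Ccnb2 window (chr9:70421543-70421646, minus strand) held CCAAT at -87, -54 and -21 and TTTGAA at 5. In Mcm5 (chr8:75109349-75109508, plus strand) TTTCGCGC at -153 overlapped TTTGGCGC of the opposite strand at -149, and in Mcm6 (chr1:128359706-128359825, minus strand) the same pair overlapped at -110 and -106, with a further TTTGGCGC at -47. Cdk1, Cdc20, Ccnb2 and Mcm5 had F02 and F10 as their highest arrays, whereas Mcm6, with the same overlapping pair as Mcm5, had F02, F05 and F01 as its highest. Among measured mitosis genes with a promoter, and thus without Ccnb1, TTTGAA was in 4 of 5 that had the order and in 7 of 9 that did not. Among replication genes with a promoter, an E2F form was in 2 of 5 that had the order (Mcm5 and Mcm7) and in 2 of 4 that did not (Mcm3 and Mcm6). CACGTG, the E-box through which BMAL1 acts, was in 7.15% of all promoters and in Cdkn2c, Tyms and Trp53 among these genes. A match is a description of these letters and shows no binding.

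F09, labelled BMAL+/+, was often the lowest array for the brighter genes on their brightest probe set, but not on their other probe sets. On the brightest it was lowest for 8 of the 11 (Ccnd1, Ccnd2, Mcm4, Mcm5, Mcm6, Mcm7, Rrm1 and Cdkn1b), where 29.6% of all genes of that brightness were lowest there. Those probe sets of Ccnd2, Mcm4, Mcm5, Mcm6 and Mcm7 are of the type that can match several genes. These 8 genes have 19 other probe sets, of which 5 were lowest on F09 and 5 had F09 among their 3 highest arrays, those of Ccnd2, Mcm6, Mcm7 (2 probe sets) and Rrm1. Of the 8 other probe sets above the upper quartile, 0 were lowest on F09. Over all 96 probe sets of the members 25 were lowest there (26.0%), against 21.3% of all probe sets. On the brightest probe set the distance from the next array was 1.2 for Mcm5, 0.80 for Ccnd2, 0.79 for Mcm4 and 0.49 for Ccnd1. Cdkn2c went the other way, at 7.94 on F09 and at most 7.23 elsewhere, as 20.1% of the genes of that brightness were highest there. Of 18 other cell cycle genes of that brightness, 6 were lowest on F09 (33.3%) and 5 highest, namely Cdk4, Rbl2, E2f5, Stmn1 and Cdkn2d, shares closer to those of all genes. Of the 3 brown fat markers, Ucp1 (14.68) and Cidea (14.04) were highest on F09, and of the 2 white fat markers Adipoq (14.01) was highest and Lep (5.97) lowest there. Of the 3 heart muscle markers, Myl7 (10.95) and Nppa (8.35) were highest on F09, as were Pi16 (9.67) of 5 fibroblast and Tie1 (5.15) of 5 endothelial markers. None of the 3 skeletal muscle markers was highest or lowest there. The part of fat, heart muscle or other tissue in these values was not tested.

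**Figure D4:**
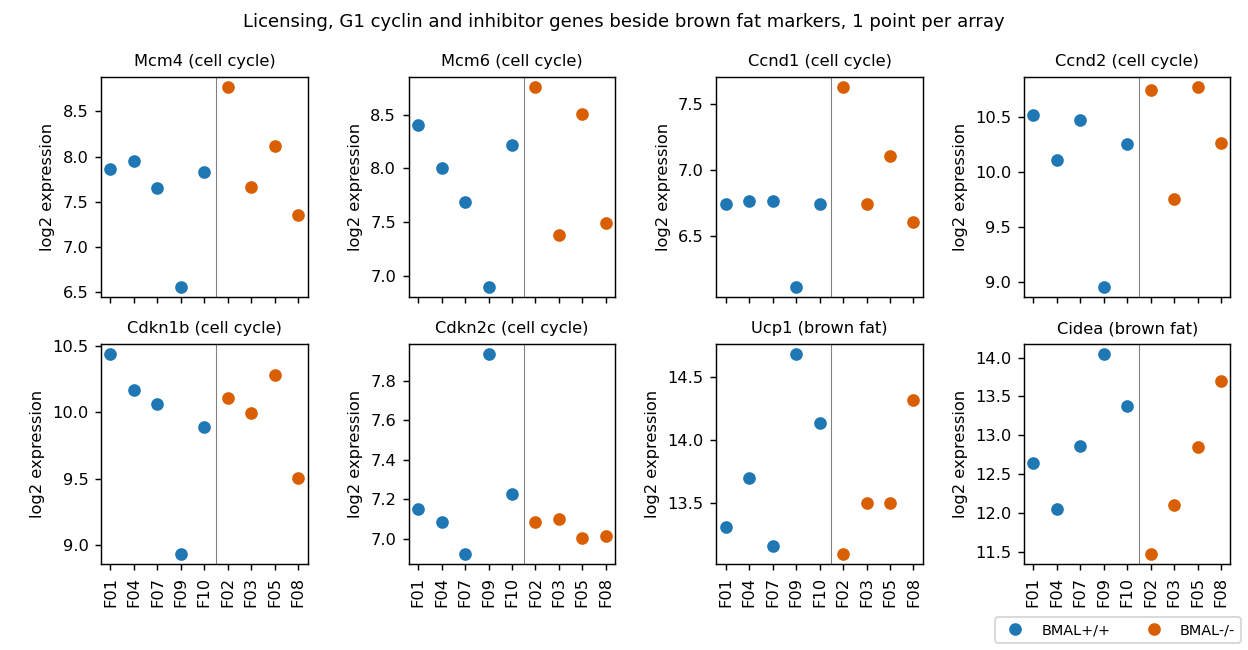
Log2 expression of 6 cell cycle genes and 2 brown fat markers, each on its brightest probe set, 1 point per array, coloured by genotype. F09 is the lowest point for Mcm4, Mcm6, Ccnd1, Ccnd2 and Cdkn1b and the highest for Cdkn2c, Ucp1 and Cidea.

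The third contrast set apart the 3 arrays with the widest 3' to 5' gap of the control transcripts. F02, F03 and F04, the arrays with the widest gap, were the 3 highest arrays for 9 of 19 cell cycle genes in the floor (47.4%), among them Bub1, Bub1b, Aurka, Plk1, Kif20a and Chek1, against 54.1% of all genes in the floor. Of the 11 brighter genes 1, Ccnd3, had them as its 3 lowest, against 10.4% of all genes of that brightness. F02 and F03 are BMAL-/- arrays and F04 is the BMAL+/+ array that the 7-array comparison leaves out. The values did not rise with the gap beyond these arrays. F01, with the next widest gap (2.72), was the lowest array for 13 of the 38 genes, where 28.5% of all genes were lowest there. With the gap as a covariate, added after the data were seen, no gene reached an unadjusted p under 0.05 in either comparison. The share of all probe sets in that fit is not given here. In the 7 arrays the wide gaps left, those of F02 and F03, are both in BMAL-/-. The fit there cannot separate the gap from genotype, and a loss of small p-values does not show which of them matters. Kif20a then differed by 0.08 as labelled and by 0.11 in the 7 arrays. Pcna turned from -0.52 to 0.25 as labelled and from -1.06 to 0.12 in the 7 arrays, and Ccnd3 from -0.40 to 0.08 in the 7 arrays. Some other probe sets were low on the same arrays, and Mcm7 on one of them read 2.66, 3.23 and 2.81 on F04, F02 and F03 against 3.94 to 5.98 elsewhere, while its brightest probe set was highest on F02. Of 29 genes with more than 1 probe set, 16 had another probe set of opposite sign as labelled.

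**Figure D5:**
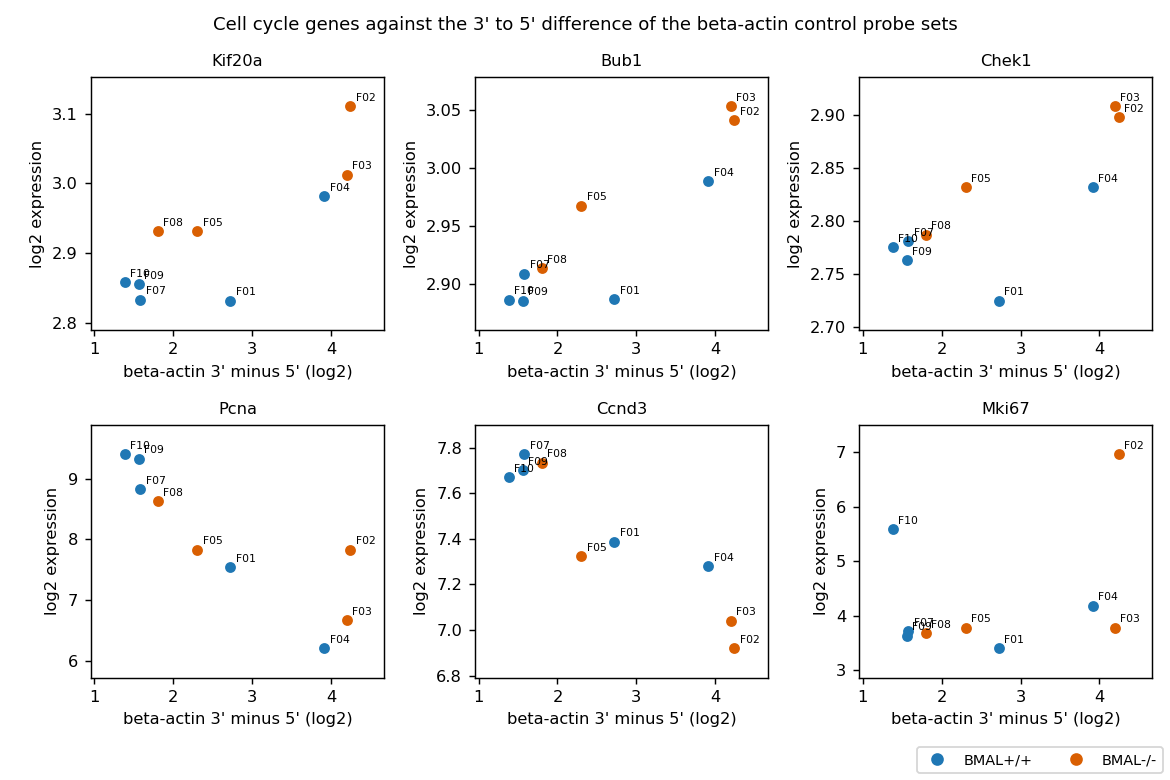
Log2 expression of 6 cell cycle genes against the 3' minus 5' difference of the beta-actin control probe sets (log2), 1 labelled point per array, coloured by genotype. F02, F03 and F04, at 3.91 or more, hold the 3 highest values of Kif20a, Bub1 and Chek1 and the 3 lowest of Ccnd3, while Mki67 is high on F02 and F10 at opposite ends of the axis.

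Of 77 other genes of the cycle, 74 were measured, and limma with Benjamini-Hochberg adjustment called 0 in either comparison. As labelled 1 of 74 reached an unadjusted p under 0.05, Ndc80 of the kinetochore, higher by 0.06. In the 7 arrays 16 did, 11 higher and 5 lower, against 20% and 3.7% of all probe sets, and the groups did not overlap for 3 higher and 3 lower genes, against 14.9% and 2.59%. Foxm1, the activator of mitosis genes, stayed in the floor at 2.98 to 3.13, and Myc, a growth-promoting transcription factor, read 3.66 on F10 and 3.63 on F02 against 2.75 to 3.0. Among the other genes highest on F02 and F10, 14 of 74 in all (18.9%), were Cdt1, at 6.52 on F10 and 7.65 on F02 against at most 4.97, and the condensin genes Smc4 and Smc2 with steps of 0.77 and 0.53.

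The other genes of G1 and S phase with the smallest p were Tk1 and Gins2 (higher, as labelled), E2f2 and Tk1 (higher, 7 arrays), and Rbl2 and Cdk4 (lower, both). E2f2, an activating E2F factor, read 4.25, 7.52, 4.97, 4.96 and 4.98 on F01, F04, F07, F09 and F10 and 7.12, 7.45, 4.34 and 5.76 on F02, F03, F05 and F08. Its 3 highest arrays were F04, F03 and F02, and the difference went from 0.83 ± 0.80 (SE) as labelled to 1.99 ± 0.43 (SE) in the 7 arrays (limma, adjusted p = 0.208), where the groups did not overlap. Cdk4, the partner kinase of the D cyclins, differed by -0.64 as labelled and by -0.92 in the 7 arrays, and Rbl2, the pocket protein p130 of resting cells, by -0.61 and -0.88. Both were lowest on F02, F03 and F04. Tk1 and Gins2 lay in the floor and differed by 0.04 or less.

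Of the other mitosis genes, Wee1, the kinase that restrains CDK1 and a known clock target, read 7.07, 5.72, 6.11, 6.06 and 5.91 in BMAL+/+ and 5.09, 5.71, 6.62 and 5.28 in BMAL-/-. F04 lay beside F03 and F05 lay inside the BMAL+/+ range, and the difference was -0.50 ± 0.37 (SE) as labelled and -0.93 ± 0.32 (SE) in the 7 arrays (limma, adjusted p = 0.208), where the groups did not overlap. Cenpa, the histone of centromeres, differed by 0.68 and by 1.19. It was highest on F02, F03 and F04, at 6.27, 5.60 and 5.27. Mybl2, Ube2c and Cdc25b lay in the floor with differences from -0.05 to 0.06.

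Among other inhibitors and p53 targets, Cdkn1a, which encodes p21, read 7.41, 8.63, 7.25, 8.21 and 6.60 in BMAL+/+ and 8.61, 9.31, 7.53 and 8.42 in BMAL-/-. The difference was 0.85 ± 0.47 (SE) as labelled and 1.42 ± 0.41 (SE) in the 7 arrays (limma, adjusted p = 0.208), where the groups did not overlap, and F03, F04 and F02 were its 3 highest arrays. With the 3' to 5' gap as a covariate the 7-array difference was 1.09. Btg2, an antiproliferative p53 target, differed by -0.76 and by -1.11, Cdkn2d, which encodes p19, by -0.66 and by -0.95, Ccng1 by 0.34 and by 0.48, and Chek2 by 0.30 and by 0.42. None passed after adjustment in either comparison. Without F08, 26 of the 74 other cell cycle genes were called, 22 higher and 4 lower, and with array weights 21 were, 18 higher and 3 lower, where 34.3% of all probe sets were called. Cdkn1a was called with weights, at 1.79 (limma, adjusted p = 0.0288), and missed the threshold without F08, at 1.60 (limma, adjusted p = 0.051). The fit without F08 called E2f2 at 2.50, Cenpa at 1.64, Rbl2 at -1.2, Cdk4 at -1.16, Cdkn2d at -1.11 and Btg2 at -1.31, and the weighted fit called E2f2 at 2.30, Cenpa at 1.54, Rbl2 at -1.06, Cdk4 at -1.02 and Cdkn2d at -1.19 but not Btg2.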

How the data were processed

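Transcript levels were measured on 9 arrays, 5 BMAL+/+ and 4 BMAL-/-, grouped by title and strain. The deposited table gives log2 expression per probe set, and the authors' notes on processing name GCRMA and MAS5, per the submitters' processing notes, with no role or version. Array medians lay between 3.13 and 3.24, and values were used as deposited. The 64 control probe sets were left out. The array annotation gives 1 gene for 34945 probe sets and several genes for 932, and 9160 are not in it. Of the first, 34741 were found in RefSeq (GRCm38.p6) by gene identifier.

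Genotype was the single term of a limma 3.58.1 fit in R 4.3.3 to all 45037 probe sets (eBayes with a mean-variance trend), with two-sided p-values adjusted by Benjamini-Hochberg at 0.05, for 9 arrays and for 7. A positive log2 difference means a higher value in BMAL-/-. The fit was tested on simulated data. No build of the arrays is given in the sources used here, and precision is limited by how many arrays there are.

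The members, gene lists and comparison without F04 and F05 were chosen with earlier results of these data known. Values on every array are given for members above the upper quartile of brightness and for the 3 per direction with the smallest p. Of the other cell cycle lists, Cdkn1a, Wee1, Foxm1 and Myc and the 2 genes per list and direction with the smallest p are named. The alternatives were quantile normalization, centring, other variance models, array weights, brightness filters, other probe set choices, F01 in BMAL-/-, one-way ANOVA and the removal of arrays. Added after the data were seen were the removal of F02 and F10, the removal of F02, F03 and F04, and the actin 3' minus 5' difference as a covariate. Figures were drawn with matplotlib 3.10.9.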

Additional observations from a re-analysis of the deposited data

Results flagged for a closer look

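Of 76 groups tested (38 genes in each genotype), 23 held an array whose gap to the rest of its group was wide for the group's range. Chance flags about 1 in 20 groups, and genes measured on the same arrays are not independent. The share of such groups over all genes is not given here, so the count shows nothing particular to the members. Over the 9 arrays, 26.6% of all genes were highest on F02 and 23.4% on F03. Among BMAL-/- arrays, F02 was set apart as the highest for Mki67 (6.97), Top2a (3.57), Ccna2 (2.91), Cdk1 (3.42), Cdc20 (6.33), Tpx2 (3.37), Mcm2 (5.42), Mcm7 (9.15) and Rrm2 (7.43). Of these, Mki67, Cdc20, Mcm2 and Rrm2 lay well above the next array of the group, at 3.78, 4.43, 3.54 and 4.71, and Top2a, Ccna2 and Tpx2 are floor genes. F03 was set apart as the highest for Ccne1 (3.90) and Cdkn2a (2.58).

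Among BMAL+/+ arrays, F10 was set apart as the highest for Ccnb2 (2.90), Ccna2 (3.08), Cdc20 (5.53), Birc5 (3.27), Mcm3 (5.97) and E2f8 (2.94), F04 for Bub1 (2.99), Bub1b (2.70) and Kif20a (2.98), and F09 as the lowest for Ccnd1 (6.12), Ccnd2 (8.96) and Mcm4 (6.56). The F04 values lie close to the next arrays (2.91, 2.65 and 2.86) and belong to floor genes. Ccna2 and Cdc20 were set apart on an array of each genotype. F10 and F02 are also the arrays with high lymphocyte markers, F04 and F03 have wide 3' to 5' gaps, and F09 has high Ucp1 and Myl7. The part of each in these values was not tested.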

How the results depend on the processing

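No paired analysis was possible because the groups share no replicate numbers. As labelled, 0 members were called under every alternative, the removal of each array included. The median difference as labelled lay between 0.01 and 0.14 when each array was left out and was 0.25 over the 19 members above the median brightness, where the floor genes are absent by construction, and in the 7 arrays it lay between -0.03 and 0.16 over the removals.

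The 2 members at an unadjusted p under 0.05 as labelled became 1 after centring, 9 with array weights, 0 above the median brightness, 0 with F01 in BMAL-/-, 0 without F02 and F10, 1 without F02, F03 and F04, 0 with the actin covariate, 7 without F04 and F05, and 0 to 9 when each array was left out. Members whose groups do not overlap as labelled went from 0 to 1 after quantile normalization or centring, 6 without F02, F03 and F04, 7 without F04 and F05, and 0 to 6 when each array was left out. Probe sets called went from 0 to 2 without F02, F03 and F04 and 4 without F04 and F05. Shares of all probe sets at an unadjusted p or without overlap are not given for most of these alternatives. Such counts therefore show nothing particular to the members.

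In the 7 arrays the 0 members called became 9 with array weights and 0 to 11 when each array was left out, the 11 without F08. The 7 at an unadjusted p became 2 after quantile normalization, 1 after centring, 14 with weights, 0 above the median brightness, 4 with all probe sets of a gene averaged, 1 without F02 and F10, 0 with the actin covariate and 1 to 12 over the removals. The 7 without overlap became 4 after quantile normalization, 4 after centring, 1 above the median brightness, 2 with probe sets averaged, 12 without F02 and F10, and 7 to 13 over the removals (12 without F10, 13 without F08). The 4 probe sets called became 2 after quantile normalization, 15448 with weights, 2 without F02 and F10, 2 with the actin covariate, and 2 to 16445 over the removals. Here too the matching shares of all probe sets at an unadjusted p or without overlap are not given. With fewer arrays a lack of overlap also becomes more frequent in any gene, so these counts are no result about the members.

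Signs of single genes turned in these cases. As labelled, with array weights, Mki67 was -0.16, Rrm2 -0.39, E2f2 -0.30 and Wee1 0.24. Wee1 was 0.0015 with F01 in BMAL-/-, Mcm5 -0.0056 without probe sets that can match several genes, Rrm2 -0.0913 without F02 and F10, and Pcna 0.25 with the actin covariate. Without F02, F03 and F04, Mki67 was -0.35, Cdc20 -0.26 and Rrm2 -0.58. In the 7 arrays, Cdc20 was -0.0441 and Rrm2 -0.30 without F02 and F10, and with the actin covariate Ccnd3 was 0.08, Pcna 0.12, Cdc20 -0.0801 and Rrm2 -0.52. Over the removals as labelled, Mki67 ranged from -0.36 to 0.82, Cdc20 from -0.20 to 0.59 and Rrm2 from -0.41 to 0.65, and in the 7 arrays Mki67 from -0.35 to 1.29, Cdc20 from -0.38 to 0.74, Mcm5 from -0.0204 to 1.26 and Rrm2 from -0.68 to 0.91, with the lowest value of each without F02. In the other cases the cause was not tested.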
